A study of Ambystoma mexicanum with 15 samples.

Results

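Ivermectin-injected and injured axolotl spinal cord was compared with injured cord whose labels name no drug, both 1 day after injury. The comparison was chosen by group label: 3 arrays labelled as ivermectin treated against 3 labelled only as 1 day after injury, which are 6 of the 15 arrays of the series. All 20035 probe sets other than 45 Affymetrix controls were compared. Each array measured RNA from tissue pooled from 10 white axolotls that were 1 month old by label. Ivermectin was pressure-injected into the central canal with the dye Fast Green, a piece of the cord was cut out directly afterwards, and the region of the injury was collected at 1 day. The protocol names water as the vehicle, but the labels of the 1 day injury arrays do not say whether those animals were injected, and no dose of ivermectin was given. Uninjured cord (3 arrays, the same age label, tissue described as mature) stands beside both groups. Arrays from 3 and 7 days after injury entered the fit of the spread, the choice of probe set per gene and some alternative settings. No gene difference is given for them. The amount of surrounding tissue taken with the cord was not stated.

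Axolotls rebuild a severed spinal cord from ependymoglial cells, which line the central canal, divide and migrate into the gap. Ivermectin opens invertebrate glutamate-gated chloride channels and, in vertebrates, acts on glycine, GABA-A, P2X4 and alpha-7 nicotinic receptors, and it also inhibits importin-mediated nuclear import. The study's title concerns membrane depolarization and the ependymoglial response to injury, and the comparison asks how the 1 day injury profile differs when such a drug is present.

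The ivermectin arrays stood closer to the uninjured arrays than to the other injured arrays. Across probe sets, which are not independent replicates, the correlation was 0.996 to 0.997 between ivermectin and uninjured arrays and 0.967 to 0.968 between ivermectin and 1 day injury arrays. It was 0.971 to 0.972 between 1 day injury and uninjured arrays and 0.997 to 0.999 within each of these groups. Poly-A control RNA, spiked in ahead of labelling, averaged 7.43 ± 0.0474 (SD, n = 3) on ivermectin arrays and 7.54 ± 0.0286 on uninjured arrays. On the 1 day injury arrays it averaged 8.08 ± 0.0441, so that ivermectin arrays were 0.648 lower on the log2 scale. Controls added at hybridization averaged 10.7 in both groups compared. No array of one group overlapped the other on the poly-A control, so the drug and whatever set this control cannot be told apart, and no value can be recomputed on 1 side of the division. The cord's own markers were present, with GFAP at 10.41, 10.42 and 10.43 and the myelin gene MBP at 11.11, 11.13 and 11.09 on the ivermectin arrays, but SOX2, a neural stem cell factor, had no named probe set. Genes of skeletal muscle, red cells and epidermis were also measured well above the lower quartile of their arrays, which was 4.22 to 4.26.

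**Figure D1:**
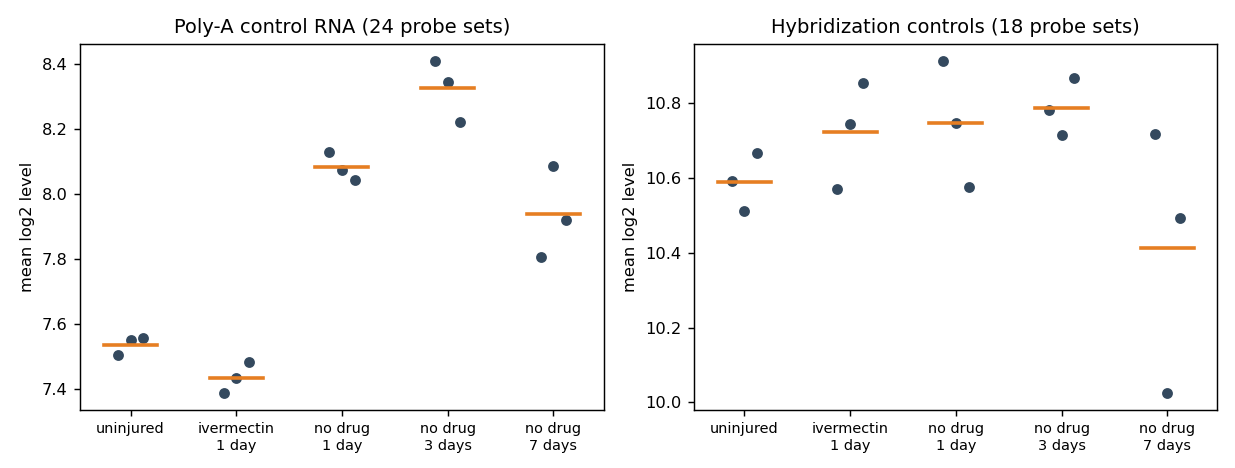
Mean log2 level of control probe sets on each of the 15 arrays (points), by group, with the group mean as a line; the left panel shows poly-A control RNA and the right panel hybridization controls. The ivermectin arrays (mean 7.43) and uninjured arrays (mean 7.54) lie below all injured arrays without a drug label on the poly-A control, while ivermectin and 1 day injury arrays overlap on the hybridization controls.

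Most of the transcriptome differed between the 2 injured groups. In limma's moderated test over all 15 arrays, 5934 probe sets were higher with ivermectin (29.6%) and 5090 lower (25.4%), so 55.0% of probe sets were called at an adjusted p under 0.05. Of these, 787 were at least 2-fold higher and 776 at least 2-fold lower, and 76 and 168 passed 4-fold. The 3 arrays of one group did not overlap the 3 of the other in 60.4% of probe sets (62.9% of named genes), so separate arrays were the common case. Over the 8639 named genes, each represented by 1 probe set, 30.9% were higher and 26.6% lower, with a median difference of 0.00, and these shares are the background for every list below. The balance of the directions depended on the scaling: cyclic loess gave 5358 higher and 5721 lower, and median centring 5267 and 6085. All levels are on the log2 scale, 1 probe set each, and every difference is ivermectin minus 1 day injury ± SE from limma, with n = 3 arrays per group.

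The cyclin that drives entry into mitosis, CCNB1, read 9.27, 9.30 and 9.29 on the ivermectin arrays and 6.40, 6.38 and 6.52 on the 1 day injury arrays. It was 7.22-fold higher with ivermectin, a difference of 2.85 ± 0.06 (limma adjusted p = 1.98e-14), and the uninjured mean was 8.94. The early response transcription factor FOS went the other way, at 6.38, 6.46 and 6.31 with ivermectin and 10.06, 10.09 and 10.03 in 1 day injury arrays. It was 12.8-fold lower (-3.68 ± 0.07, limma adjusted p = 9.57e-15), and also lay below its uninjured level of 7.40. In both genes all 3 arrays of a group stood on one side of all 3 arrays of the other, as in 62.9% of named genes.

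Among the 12 named genes with the largest rises, 4 act in the cell cycle or DNA synthesis. Beside CCNB1 these were the mitotic kinase AURKA (2.53 ± 0.06), thymidine kinase TK1 (2.68 ± 0.09) and FBXO5, an inhibitor of the anaphase-promoting complex (2.30 ± 0.07). NCOA7, a nuclear receptor coactivator, rose most, from 5.22, 5.40 and 5.45 to 8.45, 8.34 and 8.25 (2.99 ± 0.08, 7.93-fold). INSIG1, which holds back the sterol sensor pathway, rose by 2.92 ± 0.09 and the serine synthesis enzyme PSAT1 by 2.39 ± 0.05. The RNA-binding protein ILF2 (2.61 ± 0.05) and the RNA exosome subunit EXOSC2 (2.41 ± 0.06) were in the same range. COL28A1, a collagen, rose by 2.15 ± 0.12, the epidermal transcription factor GRHL1 by 2.13 ± 0.11, and the ciliary protein RPGR by 2.14 ± 0.25, with a wider spread between arrays (7.92, 8.16 and 8.39 against 6.38, 5.92 and 5.76). Dimmer RPGR probe sets, with means of 3.59 to 3.80, were not called (0.12 ± 0.07 and 0.02 ± 0.08, limma adjusted p = 0.144 and 0.824).

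The 12 largest falls mixed stress response, muscle and neuropeptide genes. DDIT4, a stress-induced restraint on mTOR, read 6.08, 6.38 and 6.21 with ivermectin and 10.46, 10.37 and 10.21 without, a fall of 17.4-fold (-4.12 ± 0.08). The glucose transporter SLC2A1 read 8.36, 8.17 and 8.18 against 11.73, 11.87 and 11.78 (-3.56 ± 0.06), and G0S2, an inhibitor of fat breakdown, 7.70, 7.87 and 7.94 against 11.23, 11.09 and 11.09 (-3.30 ± 0.07). These 3 genes were below their uninjured levels of 7.56, 9.39 and 9.14 as well. The sarcomere genes MYBPC1 (-4.02 ± 0.08) and ACTN2 (-3.69 ± 0.09), the neuropeptide precursors PMCH (-3.53 ± 0.11) and PENK (-3.22 ± 0.07), and FBN1, the microfibril protein fibrillin (-3.70 ± 0.08), followed. Another probe set of FBN1 was called higher. TCEA2, a transcription elongation factor (-3.63 ± 0.11), C1QTNF3, a secreted C1q-related protein (-3.51 ± 0.08), and IGLL1, an immunoglobulin light chain-like gene (-3.19 ± 0.06), completed the list. Of other IGLL1 probe sets, one was called lower (-2.93 ± 0.06) and another was not called (0.04 ± 0.10, limma adjusted p = 0.782). C1QTNF3 lay near the lower quartile with ivermectin, so it was not shown to be above background there and its fold is not exact.

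**Figure D2:**
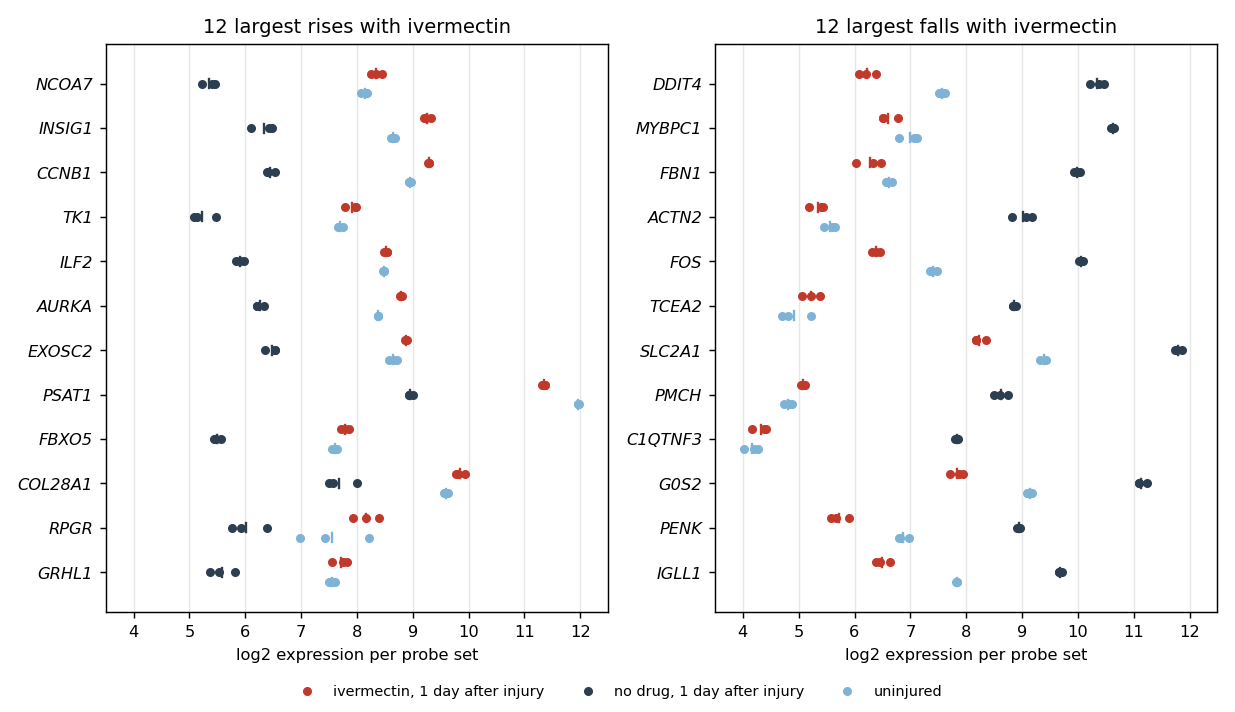
Log2 expression on each array (points) with the group mean (tick) for the 12 named genes with the largest rises (left) and falls (right) under ivermectin, for ivermectin, 1 day injury without a drug label, and uninjured cord. Genes were drawn only from called genes whose 3 ivermectin arrays are separate from the 3 arrays of 1 day injury, so that separation is not a result. CCNB1 lies between 9.27 and 9.30 with ivermectin and between 6.38 and 6.52 without.

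Cell cycle genes held the largest shares of higher members among the 44 gene lists counted. Of 54 measured genes of DNA replication and S phase, 50 rose with ivermectin and 0 fell by limma (median 0.76; 20 at least 2-fold). Of 59 genes of G2 and M phase, 54 rose and 3 fell (median 0.93; 26 at least 2-fold). Against a background of 30.9% higher, these were 92.6% and 91.5% of the lists. Where 5 or fewer members of a list were called in a direction, they are named with their differences, and those outside the rule for named genes were picked out after their values were seen. Of 55 called genes outside the rule, 20 lost their call when 1 array was left out. The other probe set of P4HA2, ATP6V1A, IPO5, NCSTN and RPS29, and one of HTRA1, was called in the opposite direction to the one given. At an unadjusted p under 0.05 limma also gave 0 lower S phase genes. In bulk tissue, fewer cells of a type and less RNA per cell cannot be told apart.

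UHRF1, which maintains DNA methylation behind the replication fork, read 10.79, 10.77 and 10.75 with ivermectin and 8.72, 8.73 and 8.85 without (2.00 ± 0.05, limma adjusted p = 8.84e-14). Licensing factor CDC6 rose by 1.96 ± 0.08, the histone chaperone ASF1B by 1.95 ± 0.12, cyclin E2 (CCNE2) by 1.91 ± 0.09 and the licensing inhibitor GMNN by 1.81 ± 0.05. PCNA, the replication clamp, rose by 0.73 ± 0.05, from 11.58, 11.58 and 11.63 to 12.27, 12.33 and 12.37. Another PCNA probe set rose by more (1.39 ± 0.06). Arrays of the 2 groups did not overlap in any of these 6 genes, as in 62.9% of named genes. Members picked from a list for a large difference are prone to separate arrays, here and below, so that separation is not a result.

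Among mitotic genes the kinase PLK1 read 9.43, 9.32 and 9.51 against 7.47, 7.49 and 7.42 (1.96 ± 0.06). KIF23, a motor of the cytokinetic midbody, rose by 1.98 ± 0.15, cyclin B3 (CCNB3) by 1.89 ± 0.05 and cyclin A2 (CCNA2) by 1.84 ± 0.05. Other KIF23 probe sets rose by less (1.21, 0.94 and 0.57). A dimmer CCNB3 probe set, with means of 3.63 with ivermectin and 3.72 without, was not called (-0.09 ± 0.07, limma adjusted p = 0.29). The proliferation marker MKI67 rose less, by 0.52 ± 0.07, from 8.45, 8.59 and 8.60 to 9.17, 8.98 and 9.04. The 3 lower genes were the survivin gene BIRC5 (-0.59), the microtubule polymerase CKAP5 (-0.20) and the kinesin KIF20B (-0.17), and the count was 1 without ivermectin array 2 or 1 day injury array 2.

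Regulators of the G1 phase were split, with 7 of 17 higher and 6 lower (median 0.11). These were 41.2% higher and 35.3% lower, against 30.9% and 26.6% of all named genes. E2F3, a transcription factor of S phase entry, rose by 1.91 ± 0.09 to 6.18, 6.20 and 6.31, but its 1 day injury level was near the lower quartile. Cyclin D2 (CCND2) rose by 0.83 ± 0.05, cyclin D1 (CCND1) by 0.56 ± 0.05 and the E2F partner TFDP1 by 0.73 ± 0.05. The cell cycle inhibitor CDKN1B fell from 11.13, 11.25 and 11.23 to 9.62, 9.67 and 9.73 (-1.53 ± 0.05), and the antiproliferative gene BTG1 fell (-1.20 ± 0.04). On the arrays of each group, CDKN1B was highest after injury without a drug label, intermediate in uninjured cord (10.04) and lowest with ivermectin.

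Genes that make and handle RNA and protein were also mostly higher, by smaller amounts. Of 78 ribosome biogenesis genes, 64 rose and 2 fell (median 0.40). Splicing factors were higher for 51 of 66 members and lower for 5 (median 0.31), nuclear import and export factors for 29 of 47 with 3 lower (0.24), and proteasome subunits for 34 of 43 with 2 lower (0.39). Mitochondrial ribosomal proteins were higher for 41 of 69 members and lower for 8 (0.22), and tRNA synthetases for 9 of 16 with 0 lower by limma, also at an unadjusted p under 0.05, and 1 lower after cyclic loess (0.29). The lower members were PWP1 and PNO1 in ribosome biogenesis (-0.48 and -0.18), PSMD9 and PSME4 among proteasome subunits (-0.12 and -0.51), and the splicing factors SF3A2 (-0.19), SF3B2 (-0.20), SF3B5 (-0.14), HNRNPA2B1 (-0.19) and LSM5 (-0.15). Lower ribosome biogenesis genes numbered 5 after cyclic loess and 4 after median centring. The counts of lower genes depended on single arrays for splicing factors, mitochondrial ribosomal proteins and proteasome subunits. For splicing factors they ranged from 0 (without ivermectin array 1) to 3. Lower mitochondrial ribosomal proteins numbered 4 without ivermectin array 1 and 5 without 1 day injury array 1. For proteasome subunits the count was 1 without any one of the 1 day injury arrays or without ivermectin array 1 or 2. Leaving out a single array did not change the count of lower genes for import and export factors or tRNA synthetases. Their counts of higher genes then ranged from 25 to 29 and from 8 to 10.

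The nucleolar methyltransferase NOP2 read 6.85, 7.01 and 6.97 against 5.65, 5.74 and 5.68 (1.25 ± 0.06), the histone chaperone family member NPM3 rose by 1.27 ± 0.09, the nucleolar phosphoprotein NOLC1 by 1.18 ± 0.06 and the RNA helicase DDX54 by 1.05 ± 0.09. Another NOP2 probe set, with means of 6.11 with ivermectin and 6.15 without, was not called (-0.05 ± 0.06, limma adjusted p = 0.56). Splicing regulator PTBP1 rose by 0.90 ± 0.05 and TRA2B by 0.86 ± 0.05. Another PTBP1 probe set rose by more (2.78 ± 0.11). MRPL47, of the large mitochondrial ribosomal subunit, stood apart in its list at 2.01 ± 0.08 (8.74, 8.64 and 8.73 against 6.64, 6.54 and 6.91). Proteasome ATPase PSMC5 rose by 0.89 ± 0.05 and the regulatory subunit PSMD8 by 0.81 ± 0.04. The mitochondrial tRNA synthetases YARS2 (0.77 ± 0.05) and WARS2 (0.72 ± 0.07) led theirs.

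Importin alpha, a known binding partner of ivermectin, was represented by several genes. KPNA2, an importin alpha, read 12.21, 12.20 and 12.20 with ivermectin and 10.78, 10.84 and 10.84 without (1.38 ± 0.05), with no overlap, as in 62.9% of named genes. The lower members of the import and export list were KPNA6 (-0.44), IPO5 (-0.26) and KPNA5. KPNA5, another importin alpha, moved in the opposite direction, from 7.26, 7.33 and 7.37 to 5.76, 5.93 and 5.78 (-1.49 ± 0.07). RCC1, the exchange factor of the Ran GTPase, rose by 0.87 ± 0.05 and the nuclear pore proteins NUP43 and NUP160 by 0.84 ± 0.07 and 0.70 ± 0.06. A dimmer NUP160 probe set, with means of 3.67 with ivermectin and 3.52 without, was not called (0.15 ± 0.08, limma adjusted p = 0.135). Against uninjured cord KPNA2 differed by 0.11 (limma adjusted p = 0.227) and KPNA5 by 0.15 (adjusted p = 0.27).

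Cytosolic ribosomal proteins had the smallest share of called members among these lists of RNA and protein handling. Of 58, 5 rose and 7 fell (median -0.03), a smaller called share than the 57.5% of all named genes. The 5 that rose were RPL14, RPL21, RPL38 (0.23), RPS29 (0.40) and RPL23A (0.27). Another RPS29 probe set was called lower (-0.32 ± 0.13, limma adjusted p = 0.0497). RPL23A lost its call without ivermectin array 2 or 3 or 1 day injury array 2 (0.11, limma adjusted p = 0.198, without the last of these). It also lost its call with cyclic loess, with median centring and in a fit of the 2 groups alone. The lower count was 16 with an intensity trend, 13 with cyclic loess and 15 with median centring. RPL14 (0.84 ± 0.11) and RPL21 (0.67 ± 0.05) rose most and RPL28 fell (-0.35 ± 0.08).

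Sterol synthesis genes were higher for 12 of 19 members and lower for 0 by limma, also at an unadjusted p under 0.05 (median 0.57; 6 at least 2-fold), with 1 lower after cyclic loess or median centring. Farnesyl diphosphate synthase, FDPS, read 9.33, 9.40 and 9.41 with ivermectin and 7.28, 7.26 and 7.28 without (2.11 ± 0.06, limma adjusted p = 4.25e-13). HMGCS1, at the head of the mevalonate pathway, rose by 1.60 ± 0.06, lanosterol demethylase CYP51A1 by 1.45 ± 0.06, squalene epoxidase SQLE by 1.21 ± 0.07 and lanosterol synthase LSS by 1.05 ± 0.09. Arrays of the 2 groups did not overlap in these 5 genes, as in 62.9% of named genes. INSIG1, HMGCS1 and CYP51A1 were also above uninjured cord, by 0.60, 0.52 and 0.38. Dimmer probe sets of CYP51A1 and LSS were not called (-0.06 ± 0.05 and -0.10 ± 0.08, limma adjusted p = 0.283 and 0.31).

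Genes of amino acid synthesis and targets of the stress factor ATF4 divided, with 12 of 21 higher and 6 lower (median 0.30). The share lower, 28.6%, was near the 26.6% of all named genes, and 57.1% were higher against 30.9%. The serine synthesis enzymes PSAT1 (11.31, 11.37 and 11.36 with ivermectin, 11.96 uninjured) and PSPH (1.85 ± 0.09) rose, as did SHMT2, which passes carbon from serine to folate in mitochondria (0.73 ± 0.05). Another SHMT2 probe set rose by more (1.57 ± 0.06). The cationic amino acid transporter SLC7A3 fell from 11.47, 11.55 and 11.50 to 10.18, 10.15 and 10.18 (-1.34 ± 0.04). Heat shock and unfolded protein response genes were higher for 18 of 38 members and lower for 6 (median 0.14). The endoplasmic reticulum chaperone HSPA5 rose by 1.61 ± 0.18, although the ivermectin arrays spread from 11.23 to 11.94, and HYOU1 by 1.83 ± 0.20, with ivermectin arrays from 8.22 to 8.95. The cochaperone DNAJB9 (1.51 ± 0.06) and the mitochondrial chaperone HSPD1 (1.18 ± 0.04) rose with less spread.

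Immediate early genes, which respond to stimulation within minutes, were lower for 10 of 16 members and higher for 2 (median -0.56; 5 at least 2-fold lower). Beside FOS, the phosphatase DUSP1, which switches off MAP kinases, read 7.74, 7.87 and 7.87 with ivermectin and 10.32, 10.35 and 10.27 without (-2.49 ± 0.08, limma adjusted p = 2.9e-12). The mRNA decay factor ZFP36 read 7.23, 7.32 and 6.71 against 9.25, 9.14 and 9.33 (-2.15 ± 0.22), and KLF10 (-1.23 ± 0.06) and JUNB (-1.06 ± 0.09) fell as well. NR4A1, an early nuclear receptor, had a difference of -0.99 ± 0.10. None of these 5 genes had overlapping arrays, as was so for 62.9% of named genes. JUN, the partner of FOS, read 6.96, 7.06 and 7.14 against 7.37, 7.35 and 7.24 and differed by only -0.27 ± 0.07 (limma adjusted p = 0.00357), and it was lower than in uninjured cord (7.41) too.

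The 2 immediate early genes that rose were MYC (0.91 ± 0.07, from 6.48, 6.58 and 6.64 to 7.37, 7.54 and 7.53) and KLF6 (0.43). Without ivermectin array 2 the count was 1. Inflammatory and NF-kB target genes were lower for 7 of 11 members and higher for 2 (median -0.47). NFKBIA, both inhibitor and target of NF-kB, read 7.53, 7.79 and 7.72 with ivermectin and 10.28, 10.20 and 10.18 without (-2.54 ± 0.06). SOCS1, which damps cytokine signalling, fell (-1.30 ± 0.05), as did NFKB2 (-0.99 ± 0.07). Another NFKB2 probe set was not called (0.02 ± 0.06, limma adjusted p = 0.801). PTGS2, the inducible prostaglandin synthase, fell from 5.87, 5.81 and 6.30 to 5.22, 5.16 and 4.37, with ivermectin array 3 well below the others (-1.08 ± 0.24, limma adjusted p = 0.00149). RELB (0.68 ± 0.11) and STAT3 (0.50 ± 0.11) were higher, RELB from a level near the lower quartile. The other STAT3 probe sets were not called, with differences of -0.003, 0.08 and 0.08 (limma adjusted p = 0.978, 0.259 and 0.298). TRAF1, also near the lower quartile, lost its call with cyclic loess, in a fit of the 2 groups alone, and without ivermectin array 1 or 3 or 1 day injury array 2 or 3 (difference -0.18 ± 0.07). SOCS3 (difference -0.25 ± 0.11, adjusted p = 0.068), TNFAIP3 (-0.13 ± 0.09, adjusted p = 0.262) and TRAF1 lay near the lower quartile with ivermectin.

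Epidermal growth factor receptor ligands did not move together. EREG rose from 8.10, 8.12 and 8.10 to 10.01, 9.98 and 9.91 (1.86 ± 0.05), whereas HBEGF fell to 7.64, 7.81 and 7.65 (-1.35 ± 0.05) and AREG from 11.18, 11.07 and 11.12 to 9.91, 9.97 and 9.99 (-1.17 ± 0.05). In the list of ERK feedback genes and these ligands 5 of 17 rose and 7 fell (median -0.13). The share that rose, 29.4%, was near the 30.9% of all named genes, and 41.2% fell against 26.6%. Beside EREG those that rose were PHLDA2 (0.75), ETV4 (0.62), NRG1 (0.31) and SPRY1 (0.24). ERRFI1, a feedback inhibitor of the receptor, fell (-1.42 ± 0.09), as did the rhomboid protease RHBDL2 (-0.81 ± 0.09).

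Interferon response genes were higher in 6 of 12 cases and lower in 3 (median 0.19), with SAMHD1 (0.89 ± 0.06) and the RNA-editing enzyme ADAR (0.85 ± 0.06) at one end and IRF1 (-0.67 ± 0.05) at the other. The viral RNA sensor IFIH1 was among the higher genes (0.14 ± 0.04, limma adjusted p = 0.0103) and lost its call without 1 day injury array 3 and under cyclic loess or median centring. STAT2 and IRF2 were the other lower members, at -0.40 ± 0.05 and -0.39 ± 0.06, and another IRF2 probe set was called higher. Apoptosis and p53 genes were lower for 8 of 20 members and higher for 4, although the median was above 0 (0.05). The p53 targets SESN1 (6.25, 6.09 and 6.17 against 8.10, 8.14 and 8.16; -1.97 ± 0.06) and TP53INP1 (-1.30 ± 0.08) fell, as did the stress genes GADD45B (-1.95 ± 0.09) and GADD45G (-1.33 ± 0.05) and CCNG1 (-1.01 ± 0.05). PLK2, a kinase of the same response, rose by 1.22 ± 0.07, and the other higher members were CASP6 (0.76), GADD45A (0.63) and CASP8 (0.41).

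Glycolysis and hypoxia genes were lower for 15 of 29 members and higher for 2 (median -0.25), against a background of 26.6% lower. HMOX1, which degrades haem and is induced by oxidative stress, read 9.97, 10.00 and 10.09 with ivermectin and 11.96, 11.94 and 11.95 without (-1.92 ± 0.04, limma adjusted p = 4.21e-14). The abundant glycolytic enzymes ENO1 (-0.63 ± 0.04), TPI1 (-0.62 ± 0.04) and ALDOA (-0.54 ± 0.04) fell less, each without overlap, as in 62.9% of named genes. The higher members were P4HA2 (0.46) and BNIP3 (0.28). Oxidative phosphorylation genes were higher for 18 of 53 members and lower for 7 (median 0.05), near the background for higher genes and below the 26.6% for lower genes, and the count of higher genes was 11 after median centring. Among them 2 were at least 2-fold lower, COX4I2, a cytochrome oxidase subunit (-1.08 ± 0.04), and another member at -1.88, while CYC1 rose by 0.45 ± 0.04.

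**Figure D3:**
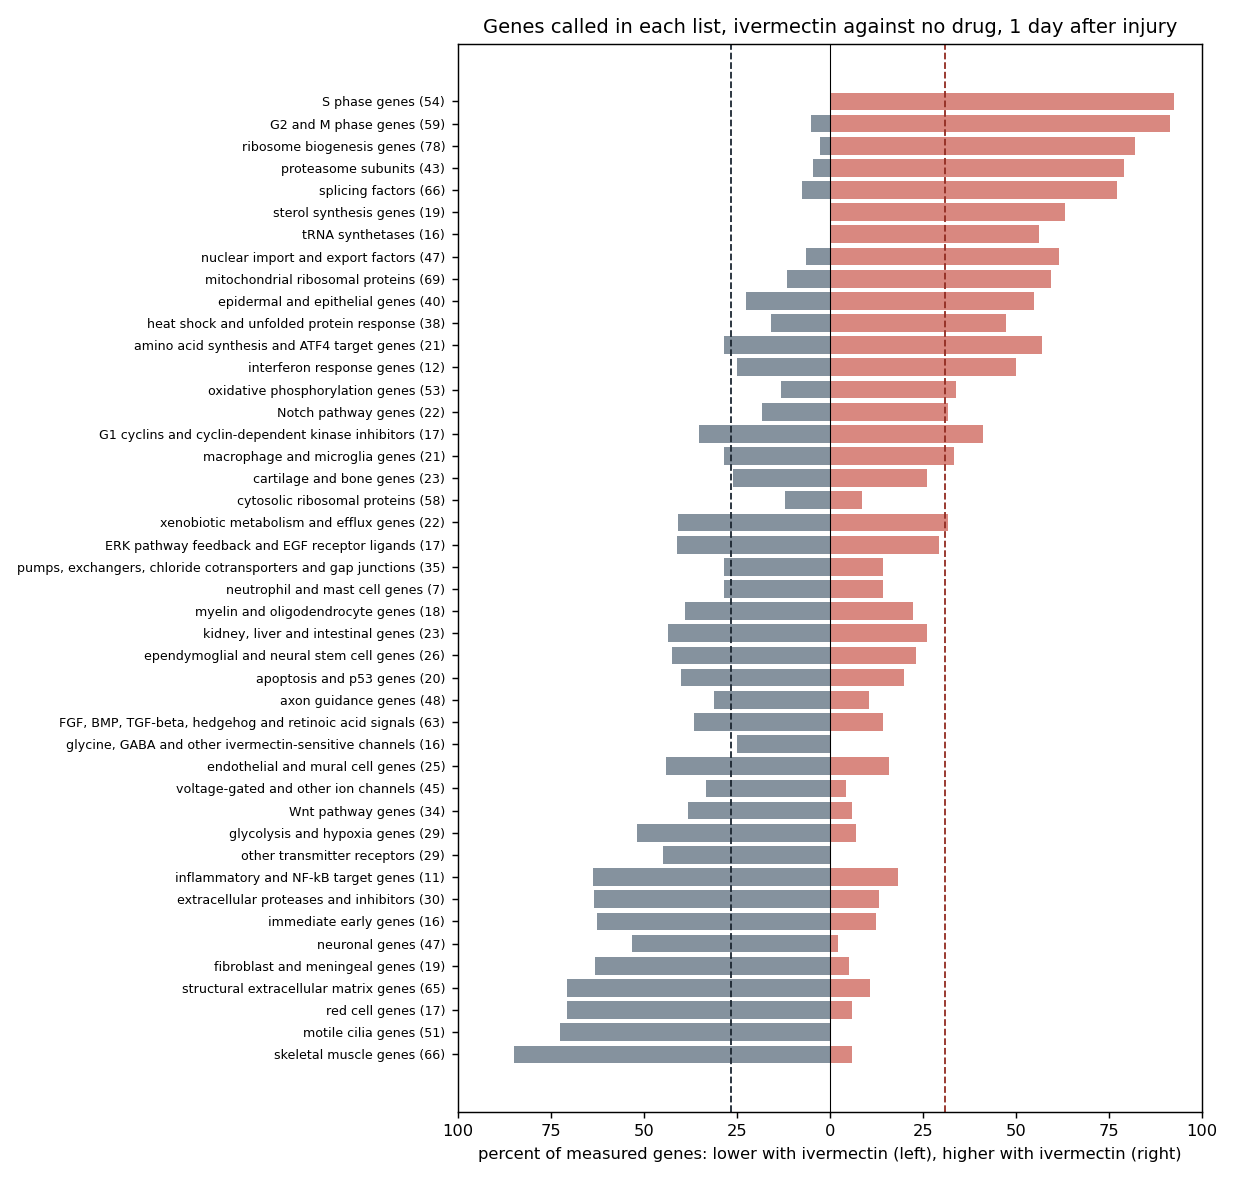
Percent of the measured members of each of 44 gene lists that were called higher (right) or lower (left) with ivermectin against 1 day injury by limma, with the number of measured genes in parentheses; dashed lines mark the shares over all named genes, 30.9% higher and 26.6% lower. S phase and G2 and M phase lists lie at the top with 92.6% and 91.5% higher, and skeletal muscle genes at the bottom with 56 of 66 lower.

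Extracellular matrix genes were mostly lower with ivermectin. Of 65 structural matrix genes, 46 fell and 7 rose (median -0.64; 17 at least 2-fold lower and 2 higher). Brevican, BCAN, a proteoglycan of nervous tissue, read 6.69, 6.79 and 6.74 with ivermectin and 9.68, 9.63 and 9.64 without (-2.91 ± 0.05, limma adjusted p = 2.35e-15). Its uninjured mean was 6.92, from which the ivermectin arrays differed by -0.18 (adjusted p = 0.0455). Another BCAN probe set fell by less (-0.63 ± 0.10). The basement membrane collagen COL4A2 fell (-1.80 ± 0.06), as did the lubricating proteoglycan PRG4 (-1.80 ± 0.08). KERA, a keratan sulfate proteoglycan, rose from 7.74, 8.03 and 7.97 to 9.97, 9.84 and 9.67 (1.92 ± 0.11). Fibroblast and meningeal genes were lower for 12 of 19 members and higher for 1, ZIC1 (median -0.20), with DPT, a matrix protein of fibroblasts, at -2.40 ± 0.06, the collagen cross-linker LOXL2 at -1.59 ± 0.05 and the meningeal transcription factor FOXC1 at -1.22 ± 0.08. Their mean log2 level over the list was 6.33 to 6.36 on ivermectin arrays, 6.73 to 6.77 on 1 day injury arrays and 6.32 to 6.37 on uninjured arrays, and the part of these cells in the matrix values was not tested.

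Extracellular proteases and their inhibitors were lower for 19 of 30 members and higher for 4 (median -0.49). MMP2, a gelatinase, read 11.45, 11.45 and 11.41 against 13.51, 13.53 and 13.47 (-2.07 ± 0.05), below its uninjured 12.42. Another MMP2 probe set fell by less (-0.62 ± 0.05). TIMP1, an inhibitor of these enzymes, read 11.78, 11.82 and 11.83 against 13.68, 13.69 and 13.66 (-1.87 ± 0.04), and MMP19 fell (-1.97 ± 0.07). Both were below uninjured cord as well, with differences of -0.83 for TIMP1 and -0.85 for MMP19. A dimmer TIMP1 probe set, with means of 3.81 with ivermectin and 3.83 without, was not called (-0.01 ± 0.07, limma adjusted p = 0.869). MMP9, the inducible gelatinase of early wounds, read 4.96, 4.73 and 4.92 with ivermectin, inside the range of the 1 day injury arrays apart from its lowest array, and had a difference of -0.08 ± 0.14 (95% confidence interval -0.36 to 0.21; limma adjusted p = 0.67). The 4 proteases that rose were the lysosomal cathepsins CTSB (0.37), CTSD (0.13) and CTSS (0.75) and the serine protease HTRA1 (0.25). When probe sets of a gene were averaged the count was 2, and 2 other CTSS probe sets were called lower.

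Motile cilia genes, which ependymal cells use to move fluid in the canal, were lower for 37 of 51 members and higher for 0 by limma (median -0.49; 7 at least 2-fold lower). At an unadjusted p under 0.05 limma gave 1 higher, and the adjusted count was 1 without 1 day injury array 2 or 3. TEKT4, a structural protein of ciliary microtubules, read 5.41, 5.53 and 5.52 with ivermectin and 7.02, 6.89 and 7.00 without (-1.49 ± 0.07, limma adjusted p = 2.07e-10), and its uninjured mean was 4.86. TEKT2 (-1.47 ± 0.08), the radial spoke gene RSPH9 (-1.37 ± 0.11) and the dynein genes DNALI1 (-1.26 ± 0.15) and DNAH7 (-1.11 ± 0.06) fell too. For TEKT4, TEKT2, RSPH9 and DNALI1 the ivermectin arrays lay between the other two groups, above uninjured cord by 0.63, 0.48, 0.49 and 0.62. DNALI1 was near the lower quartile in uninjured cord. The mean level of the list was 5.40 to 5.43 on ivermectin arrays, 5.94 to 5.95 on 1 day injury arrays and 5.25 to 5.28 on uninjured arrays.

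Ependymoglial and neural stem cell genes were divided, with 6 of 26 higher and 11 lower (median -0.14). These were 23.1% higher and 42.3% lower, against 30.9% and 26.6% of all named genes. GFAP, the intermediate filament of glia, read 10.41, 10.42 and 10.43 with ivermectin and 10.61, 10.59 and 10.58 without (-0.18 ± 0.05, limma adjusted p = 0.00528). Against uninjured cord (9.97) it was 0.44 higher with ivermectin (adjusted p = 3.06e-05), so it lay between the other two groups. VIM, a filament of radial glia and mesenchyme, read 13.20, 13.23 and 13.16 against 13.69, 13.67 and 13.69 (-0.48 ± 0.04). The small heat shock protein CRYAB (-1.84 ± 0.04), the matrix protein TNC (-0.94 ± 0.05) and FABP7, a lipid carrier of radial glia (-0.75 ± 0.11), fell. For TNC a dimmer probe set was not called (-0.11 ± 0.06, limma adjusted p = 0.126). The transcription factors ZIC1 (1.49 ± 0.15) and ID3 (0.98 ± 0.08) rose.

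Neuronal genes were lower for 25 of 47 members and higher for 1 (median -0.23), and 11 of the 47 lay near the lower quartile in both groups. Neuropeptide genes led the falls. PMCH read 5.09, 5.04 and 5.12 against 8.75, 8.61 and 8.49, PENK 5.67, 5.58 and 5.90 against 8.95, 8.91 and 8.97 and the tachykinin gene TAC1 5.92, 5.80 and 6.15 against 8.42, 8.37 and 8.18. NPY (-1.88 ± 0.11) and SST (-1.23 ± 0.07) were lower too, as was SCG3, a granin of secretory granules (-2.15 ± 0.09), which lay near the lower quartile with ivermectin. Another NPY probe set was not called (0.05 ± 0.10, limma adjusted p = 0.727). ELAVL4, a neuronal RNA-binding protein, was the higher gene (0.32); the count was 2 without 1 day injury array 2 and 0 with dim probe sets left out. Against uninjured cord, 6 of the 47 neuronal genes were higher and 2 lower (median 0.03), with 3 to 5 higher without any single array. Over all named genes the shares were 3.06% and 4.33%. PENK and TAC1 were below uninjured cord, with differences of -1.14 and -0.43, while PMCH and SST were not called there (0.27 and 0.11, limma adjusted p = 0.166 and 0.466). Myelin and oligodendrocyte genes were higher for 4 of 18 members and lower for 7 (median -0.12), with MAL, a membrane proteolipid, at 2.11 ± 0.05 and CNP at 0.99 ± 0.11 against MBP at -0.68 ± 0.05 and UGT8, which makes a myelin lipid, at -0.94 ± 0.12. The other higher members were BCAS1 (0.41) and ENPP2 (0.40). By at least 2-fold, 2 members of this list were lower and 1, MAL, was higher. The lowest difference in the list, -1.84, was that of CRYAB, which was also counted with the ependymoglial genes.

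**Figure D4:**
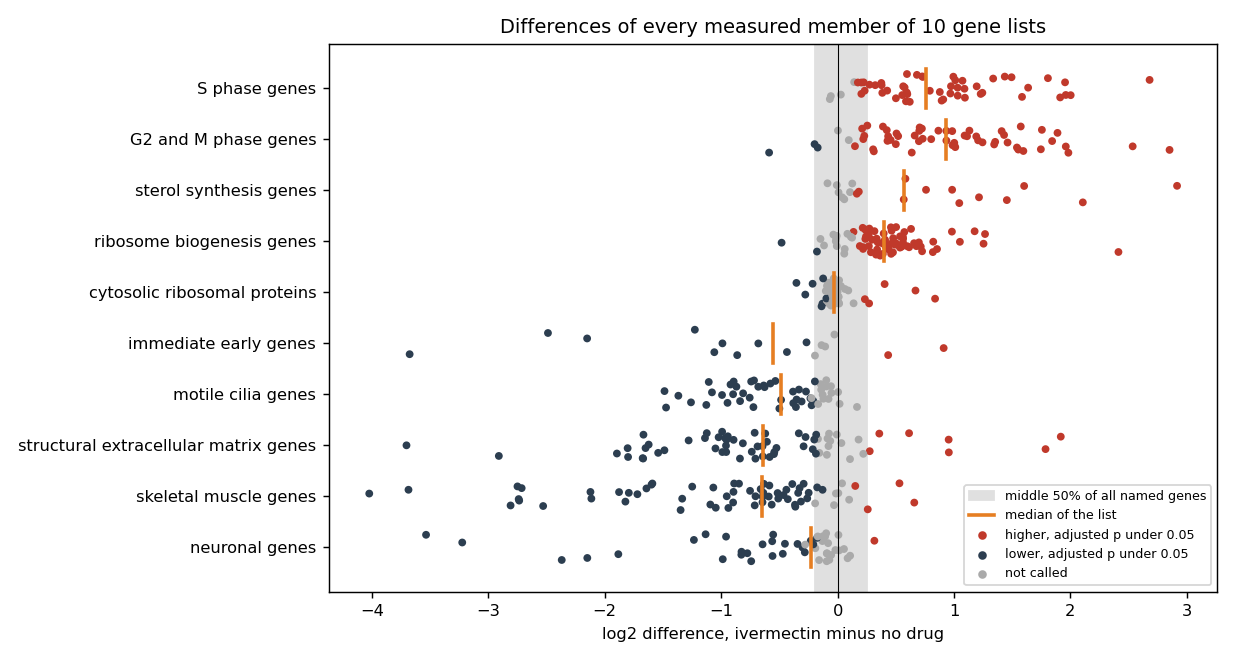
Log2 difference, ivermectin minus 1 day injury, of every measured member of 10 gene lists (points coloured by limma call), with the median of each list (orange) and the middle 50% of all named genes (grey, -0.20 to 0.25). S phase and G2 and M phase medians lie at 0.76 and 0.93, cytosolic ribosomal proteins at -0.03 and skeletal muscle genes at -0.65.

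Channels on which ivermectin is known to act were mostly measured near the lower quartile. Of 16 glycine and GABA-A receptor subunits and other ivermectin-sensitive channels with a named probe set, 10 lay there in both groups, where no signal above background is established. In limma 0 were higher (1 at an unadjusted p under 0.05) and 4 lower (median -0.14), with 1 higher without ivermectin array 2. Set against all named genes, the share of this list called lower was near their 26.6%, and the share called higher was below their 30.9%. The adenosine triphosphate receptors P2RX4 (3.97, 4.21 and 4.11 against 4.92, 4.56 and 4.40; -0.53 ± 0.12, limma adjusted p = 0.00141) and P2RX7 (6.70, 6.60 and 6.67 against 6.84, 7.06 and 6.89; -0.27 ± 0.07) were lower. CHRNA7, the alpha-7 nicotinic subunit, had a difference of -0.27 ± 0.07 and the glycine receptor beta subunit GLRB one of -0.16. P2RX4 with ivermectin and CHRNA7 in both groups were near the lower quartile. All 16 differences lay between -0.53 and 0.17, and against uninjured cord 0 of the 16 were called by limma, and 0 at an unadjusted p under 0.05. The share of all named genes called against uninjured cord was 7.39%.

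Calls of 3 other receptor subunits depended on the setting. GLRA2, a glycine receptor alpha subunit, read 4.79, 4.35 and 4.72 against 4.93, 5.04 and 4.90 (-0.34 ± 0.15; 95% confidence interval -0.65 to -0.02; adjusted p = 0.0646), and was called lower in 6 alternatives (adjusted p from 0.0303 to 0.043), among them the fit without ivermectin array 1. GABRB2 read 4.56, 4.44 and 4.57 against 5.05, 4.43 and 4.87 (-0.26 ± 0.13; adjusted p = 0.124), with overlapping arrays, and was called lower without 1 day injury array 2 (adjusted p = 0.00501). GABRA5 had a difference of -0.18 ± 0.08 (adjusted p = 0.081) and was called lower in 4 alternatives (adjusted p from 0.0318 to 0.0445), none of which left out an array.

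Other transmitter receptors were lower for 13 of 29 members and higher for 0 by limma, also at an unadjusted p under 0.05 (median -0.09), with 19 near the lower quartile in both groups. Without dim probe sets 8 were lower. P2RX5 read 6.65, 6.47 and 6.59 against 9.33, 9.35 and 9.37 (-2.77 ± 0.08), and the kainate receptor GRIK2 fell (-1.41 ± 0.05). The muscle acetylcholine receptor subunits CHRNE (-1.29 ± 0.07), CHRNB1 (-0.91 ± 0.07) and CHRNG (-0.59 ± 0.08) were lower as well, beside the muscle genes described below. Voltage-gated and other ion channels were lower for 15 of 45 members and higher for 2 (median -0.13), with the epithelial sodium channel subunit SCNN1B at -2.19 ± 0.08, the T-type calcium channel CACNA1G at -1.19 ± 0.09 and the chloride transporter CLCN3 at 0.74 ± 0.12. Beside CLCN3, CLIC1 (0.46) was higher. Pumps, exchangers, chloride cotransporters and gap junctions were lower for 10 of 35 members and higher for 5 (median -0.03). The share lower, 28.6%, was near the 26.6% of all named genes, and 14.3% were higher against 30.9%. The higher count was 2 without 1 day injury array 1, 3 without ivermectin array 1 or 3, and 3 in a fit of the 2 groups alone. The connexin GJC1 fell (-1.10 ± 0.09), though another GJC1 probe set was not called (0.13 ± 0.11, limma adjusted p = 0.342). The calcium pump ATP2A2 rose by 0.56 ± 0.06, and by 1.91 ± 0.14 on another probe set. The others that rose were the proton pump subunits ATP6V0A1 (0.62), ATP6V1A (0.22) and ATP6V1H (0.12) and the sodium-proton exchanger SLC9A3 (0.16).

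Skeletal muscle genes had the largest share of lower members of any list, 56 of 66, with 4 higher (median -0.65; 23 at least 2-fold lower). The slow muscle troponin TNNI1 read 8.91, 9.01 and 9.08 with ivermectin and 11.86, 11.79 and 11.78 without (-2.81 ± 0.05, limma adjusted p = 2.35e-15). The slow muscle genes MYL3 (-2.75 ± 0.04), TNNC1 (-2.74 ± 0.05) and TNNT1 (-2.73 ± 0.06) fell by nearly the same amount. The mean level of the list was 8.43 to 8.44 on ivermectin arrays, 9.40 to 9.42 on 1 day injury arrays and 8.46 to 8.50 on uninjured arrays. None of the 4 genes overlapped between the groups, as was so for 62.9% of named genes. The higher members were MYL7 (0.66), DMD (0.53), ANKRD2 (0.26) and PHKG1 (0.15). The part of muscle in the other lower lists was not tested.

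Red cell genes were lower for 12 of 17 members and higher for 1, CPOX at 0.34 (median -0.43). ALAS2, which starts haem synthesis in red cells, read 8.48, 8.47 and 8.40 against 10.39, 10.38 and 10.41 (-1.94 ± 0.06), and SPTB, a membrane skeleton protein, fell (-1.55 ± 0.07). The mean level of this list was 6.21 on each ivermectin array, 6.80 to 6.82 on 1 day injury arrays and 6.25 to 6.30 on uninjured arrays. Endothelial and mural genes were lower for 11 of 25 members and higher for 4 (median -0.19). The smooth muscle gene TAGLN fell from 9.22, 9.22 and 9.17 to 7.18, 7.14 and 7.04 (-2.09 ± 0.06) and CNN1 was lower too (-1.48 ± 0.07), while the 4 higher genes were PECAM1 (0.24), FLT1 (0.38), ETS1 (0.25) and LYVE1 (0.27).

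Epidermal and epithelial genes were higher for 22 of 40 members and lower for 9 (median 0.31). The tight junction gene CLDN3 read 9.91, 10.01 and 9.99 against 8.37, 8.35 and 8.35 (1.61 ± 0.07), and the epithelial regulators OVOL2 (1.62 ± 0.07) and ESRP2 (1.49 ± 0.08) rose. CDH17, an intestinal cadherin, read 6.70, 6.67 and 6.56 with ivermectin and 8.20, 8.20 and 8.20 without (-1.56 ± 0.06), both above its uninjured mean of 4.82. The mean level of the list was 9.23 to 9.27 on ivermectin arrays, 8.95 to 8.97 on 1 day injury arrays and 9.28 to 9.29 on uninjured arrays.

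Macrophage and microglia genes were balanced, with 7 of 21 higher and 6 lower (median 0.01). These shares, 33.3% and 28.6%, were near the 30.9% and 26.6% of all named genes. Mean levels were 7.51 to 7.54 on ivermectin arrays, 7.47 to 7.48 on 1 day injury arrays and 7.59 to 7.64 on uninjured arrays. The lysosomal genes ACP5 (0.71 ± 0.06) and CD68 (0.63 ± 0.12) were higher, and the complement gene C1QB (-0.74 ± 0.08) and LAPTM5 (-0.49 ± 0.05) lower. Of 7 neutrophil and mast cell genes, the lysozyme gene LYZ rose (0.52 ± 0.06), and KIT (-0.78 ± 0.09) and HDC (-0.42 ± 0.06), genes of mast cells, fell. Their share lower, 28.6%, was near the 26.6% of all named genes, and 14.3% were higher against 30.9%. CXCR4, ALOX5 and ALOX5AP were not called, at -0.05 ± 0.06, -0.06 ± 0.05 and 0.09 ± 0.06 (adjusted p = 0.521, 0.357 and 0.226). ALOX5AP was near the lower quartile throughout, and ALOX5 was called lower after cyclic loess. Cartilage and bone genes were split, 6 of 23 higher and 6 lower (median -0.06), with MATN3 at 1.79 ± 0.08 and ACAN at -1.49 ± 0.05. Each share was 26.1%, against 30.9% higher and 26.6% lower over all named genes. Kidney, liver and intestinal genes were lower for 10 of 23 members and higher for 6 (median -0.09), with the plasma protein HPX at -1.50 ± 0.05 and ARG1 at 1.07 ± 0.05. Of this list 43.5% were lower against 26.6% of all named genes, and 26.1% higher against 30.9%.

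Wnt pathway genes were lower for 13 of 34 members and higher for 2 (median -0.14). The Wnt antagonists SFRP4 (-1.06 ± 0.10, near the lower quartile with ivermectin) and DKK3 (-0.95 ± 0.09) and the R-spondin receptor LGR4 (-0.60 ± 0.06) were lower. WIF1, a Wnt inhibitor, was higher (0.59 ± 0.07), as was DKK2 (0.19). The count of higher Wnt genes was 1 without 1 day injury array 2, ivermectin array 2 or ivermectin array 3, and after cyclic loess or median centring. Notch pathway genes were higher for 7 of 22 members and lower for 4 (median 0.05), and 4 rose without 1 day injury array 1 or ivermectin array 2 and after cyclic loess or median centring. The share higher, 31.8%, was near the 30.9% of all named genes, and 18.2% were lower against 26.6%. The ligand DLL1 (0.71 ± 0.07) and the target HES1 (0.73 ± 0.08) rose, whereas the receptor NOTCH1 (-0.63 ± 0.05) and the target HEY1 (-0.96 ± 0.07) fell, with MIB1 (-0.34) and NCSTN (-0.31). Another NOTCH1 probe set was not called (-0.02 ± 0.05, limma adjusted p = 0.831).

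FGF, BMP, TGF-beta, hedgehog and retinoic acid genes were lower for 23 of 63 members and higher for 9 (median -0.06). CYP26A1, which degrades retinoic acid, read 7.64, 7.83 and 7.99 against 5.76, 6.03 and 6.20 (1.82 ± 0.10) and was 0.60 above uninjured cord (adjusted p = 0.00183). The BMP antagonist CHRDL1 (-1.41 ± 0.07), the TGF-beta corepressor TGIF1 (-1.21 ± 0.06) and FGF12 (-1.15 ± 0.06) fell. Another CHRDL1 probe set fell by less (-0.26 ± 0.10). Axon guidance genes were lower for 15 of 48 members and higher for 5 (median -0.11), with the receptors ROBO1 at -1.28 ± 0.10 and EPHA7 at -1.23 ± 0.12. The share lower was 31.3% against 26.6% of all named genes, and 10.4% were higher against 30.9%. Other ROBO1 probe sets were not called (-0.06 ± 0.10 and -0.04 ± 0.07). Axon guidance genes that rose were SEMA3A (0.64), EPHA1 (0.63), SEMA4D (0.50), SLIT2 (0.28) and RGMA (0.19), and 8 rose without ivermectin array 3. Xenobiotic metabolism and efflux genes were higher for 7 of 22 members and lower for 9 (median -0.04). Their share higher, 31.8%, was near the 30.9% of all named genes, and 40.9% were lower against 26.6%. GCLC, the limiting enzyme of glutathione synthesis, rose by 0.90 ± 0.06, and POR, the electron donor of cytochrome P450 enzymes, by 0.88 ± 0.09. ALDH1A1, an aldehyde dehydrogenase, fell (-0.77 ± 0.05).

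Set beside uninjured cord, the ivermectin arrays differed in far fewer genes. Here 606 probe sets were higher (3.02%) and 787 lower (3.93%) by limma, 7 and 25 of them by at least 2-fold. In all 6.95% were called. Over named genes the shares were 3.06% higher and 4.33% lower, 7.39% together. The higher count fell to 360 without ivermectin array 2, 396 without ivermectin array 3 and 363 without uninjured array 2. Both comparisons share the ivermectin arrays, so their values are given side by side and no overlap is drawn.

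Of 54 S phase genes, 16 were higher than in uninjured cord and 0 lower by limma, with 0 lower also at an unadjusted p under 0.05 (14 to 17 without any single array). UHRF1 was 0.44 higher, CCNE2 0.53, CDC6 0.46, GMNN 0.36 and PCNA 0.23. Of 59 G2 and M phase genes, 10 were higher, among them AURKA (0.41), CCNB1 (0.35) and CCNA2 (0.33). That count was 5 to 7 without any single array, and 4 in a fit of the 2 groups alone. It was 6 without ivermectin array 2 or 3 or uninjured array 1, and 5 without uninjured array 2. Motile cilia genes were higher in 10 of 51 cases, which became 4 to 7 without any single array. The count was 4 without ivermectin array 2, 5 without ivermectin array 3 and 6 without uninjured array 1.

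Immediate early genes were lower than in uninjured cord in 7 of 16 cases (5 to 6 without any single array). The difference from uninjured cord was -1.02 for FOS (limma adjusted p = 4.88e-07), -0.78 for DUSP1, -0.74 for KLF10 and -0.52 for JUNB. The stress and metabolic genes DDIT4 (-1.34), G0S2 (-1.31) and SLC2A1 (-1.15) were lower by more than 1 on the log2 scale. In these 7 genes the 1 day injury arrays were above uninjured cord and the ivermectin arrays below it. Structural matrix genes were lower in 13 of 65 cases, which became 6 without uninjured array 2 and 7 or 8 without any other single array of the 2 groups. Skeletal muscle genes were lower in 11 of 66 cases, with TNNI1 at -0.31 and TNNT1 at -0.36, and higher in 4, TTN (0.33), MYBPH (0.31), ANKRD2 (0.30) and CACNA1S (0.22). The count of higher muscle genes was 2 without ivermectin array 2 or without uninjured array 2. Epidermal genes were lower in 8 of 40 cases, and amino acid synthesis and ATF4 target genes in 7 of 21, with PSAT1 at -0.62 and SLC7A3 at -0.59. Among channels and receptors, limma called 0 of 16 ivermectin-sensitive channels, 1 of 29 other transmitter receptors (CHRNA4, 0.47) and 1 of 45 other channels (CACNA1S). The share over all named genes was 7.39%, at which lists of these sizes would hold few calls. In both injured groups 10, 19 and 25 of their members lay near the lower quartile, so no lack of difference is shown. The count for other channels was 0 without ivermectin array 1 or without any single uninjured array.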

How the data were processed

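Total RNA (Trizol) was labelled with an Affymetrix 3' IVT biotin kit, per the labels' protocols. The authors summarised probes with RMA in Affymetrix Expression Console, per the submitters' processing notes, and the deposited values are log2 expression per probe set, used as deposited. Whether the 15 arrays were normalized together is not given in the sources used here. No detection call was used, and 0 columns were left unused. Gene symbols came from the platform annotation (10951 probe sets named, 9084 not). For 1740 genes with several probe sets, the one brightest on average over the 15 arrays was taken, and 173 had probe sets called in opposite directions. Probe sets called in the same direction could also differ in size, and only some of these are given. Genome positions and probe sequences were not used here.

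Group means (1 per group) were fitted to all arrays with limma 3.58.1 in R 4.3.3 (lmFit, eBayes; 10 residual and 4.26 prior degrees of freedom), tested 2-sided with Benjamini-Hochberg adjustment over 20035 probe sets. Replicates are pools of animals, so a p-value reflects differences between pools, and precision is limited by the number of arrays. Same-numbered arrays of the 2 groups did not deviate together (residual correlation -0.225 to -0.0388), so no block was used. The steps were tested on simulated data in which 67, 67 and 66 of 20035 probe sets were shifted by 0.5, 1 and 2 on the log2 scale. Of these 85.1%, 100% and 100% were recovered, with 9 false calls. Far fewer probe sets moved there than the 55.0% called in the data, so scaling and the balance of directions were not tested. The members and the 44 lists were chosen with earlier results of these data known, so no list is independent evidence of its direction. Some genes belong to more than 1 list, so the counts of such lists are not independent of each other. Named genes are the 12 largest rises and falls among called genes with separate arrays, the 6 members of each list with the largest absolute difference, all members of lists with at most 15 measured genes, and FOS, JUN, GFAP, VIM, SOX2, PCNA, MKI67, CCNB1, MMP9 and MBP. Genes outside the rule, such as the members of small list counts, were named after their values were seen. Alternatives were a replicate block, the 2 groups alone, an intensity trend, cyclic loess, median centring, array weights, dim probe sets left out (lowest 25%), 1 probe set per gene, averaged probe sets, a log2 difference of at least 1, and leaving out each array. Their use on gene lists against uninjured cord was chosen after seeing the data. Figures were drawn with matplotlib 3.10.9.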

Additional observations from a re-analysis of the deposited data

How the results depend on the processing

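Single genes were followed on their chosen probe set only, so averaged probe sets and 1 probe set per gene were not applied to them. Other probe sets could go the opposite way, as for CTSS (-0.84 and -2.07). On the chosen probe set, direction was kept in every other alternative for the 286 genes of the naming rule. Of these, 10 changed side of the threshold in at least 1 alternative: SOCS3, TRAF1, TRIM25, DHX58, IFIH1, GLRA2, GABRB2, GABRA5, ALOX5 and RPL23A. Of 56 genes outside the rule, REG4, which was not called, changed sign after cyclic loess (-0.02). Without 1 of the arrays, 20 lost their call (adjusted p from 0.051 to 0.198): KLF6, SPRY1, NRG1, KIF20B, CKAP5, GLRB, ATP6V1A, ATP6V1H, SLC9A3, CTSD, PECAM1, PHKG1, DKK2, SLIT2, PSMD9, SF3A2, SF3B2, SF3B5, HNRNPA2B1 and LSM5. For ivermectin against 1 day injury, 1 probe set per gene gave 2704 higher and 2348 lower, and a log2 difference of at least 1 gave 787 and 776. Leaving out 1 array gave 5529 to 5591 higher and 4659 to 4795 lower. Cyclic loess (5358 and 5721) and median centring (5267 and 6085) turned the balance of directions. For ivermectin against uninjured cord, 1 probe set per gene gave 319 higher and 396 lower, a log2 difference of at least 1 gave 7 and 25, and the fit of the 2 groups alone gave 327 higher. Leaving out 1 array gave 360 to 482 higher and 541 to 698 lower. With a replicate block the counts were 5856 and 5025 against 1 day injury and 535 and 694 against uninjured cord; the numbers do not pair the arrays, and the block moved neither count by over 1.5 times. Among counts of list members, 136 moved by over 1.5 times and 1272 did not against 1 day injury, and 132 moved and 748 did not against uninjured cord. Of the 136, 81 came from requiring a log2 difference of at least 1. Signal over background was not measured, so genes near the lower quartile have no exact fold.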

Other observations

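Some named genes outside the rule, chosen after their values were seen, took other orders across the 3 groups. REG4, a secreted lectin of the intestine, read 6.42, 6.44 and 6.49 with ivermectin and 6.34, 6.54 and 6.29 in 1 day injury arrays, with overlapping arrays and a difference of 0.06 ± 0.08 (limma adjusted p = 0.518). Both lay above its uninjured mean of 4.35, which was near the lower quartile, and the ivermectin arrays were 2.10 higher than uninjured cord (adjusted p = 3.45e-10). NUPR1, a stress-induced chromatin protein, read 9.16, 9.21 and 9.25 with ivermectin and 10.33, 10.27 and 10.25 without, a difference of -1.08 ± 0.05, while its uninjured mean was 10.30. PLBD1, a phospholipase B-like protein, was lowest with ivermectin at 4.89, 4.97 and 4.90, against 6.79, 6.91 and 6.90 in 1 day injury arrays and a mean of 6.41 in uninjured cord. CD74, the invariant chain of class II antigen presentation, read 6.22, 6.30 and 6.46 with ivermectin and 8.57, 8.57 and 8.57 without, with an uninjured mean of 7.42. In 39 probe sets the 3 arrays of 1 day injury held values equal to the last of the 9 decimals deposited, CD74 among them, and in 24 probe sets the 3 ivermectin arrays did.

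The largest differences of all were in probe sets without a gene name. Probe set axo03430-f_s_at read 3.45, 3.65 and 3.69 with ivermectin, 12.23, 12.18 and 12.15 in 1 day injury arrays, and 3.49, 3.76 and 3.83 in uninjured cord. Probe set axo20861-f_s_at had a difference of -8.13 ± 0.10. In the other direction axo22484-f_at read 10.17, 10.43 and 10.40 with ivermectin and 3.96, 3.80 and 3.88 without, a difference of 6.45 ± 0.07, and axo30759-f_at had one of 5.64 ± 0.10. The lower group of axo03430-f_s_at, axo22484-f_at and axo30759-f_at lay below or near the lower quartile, so those folds are not exact.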
